A study of Mus musculus with 16 samples.

Results

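The genes described here are 10 genes of the cardiomyocyte response to mechanical stress, measured by RNA sequencing in mouse left ventricle. They are Ankrd1, Ankrd2, Ankrd23, Csrp3, Xirp1, Xirp2, Fhl1, Fhl2, Nrap and Rcan1, taken by symbol from a fixed list. All 10 were found among the 55492 genes of the deposited table. All 10 passed the filter of a mean of at least 10 normalized counts over the libraries, which left 20576 genes for testing.

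The left ventricles came from male C57BL/6 mice of 8 to 12 weeks, 16 libraries in 6 groups. PKM2fl/fl mice carry a floxed gene for the muscle pyruvate kinase isoform PKM2 and served as controls. PKM2-/- mice lack PKM2 in all tissues, since Cre under a CMV promoter had removed the floxed exon in the germline and the Cre allele was then bred out. Each genotype was sampled without surgery (baseline, 2 hearts), 3 days after sham surgery (3 hearts) and 3 days after myocardial infarction (MI, 3 hearts) by permanent ligation of the left anterior descending coronary artery, and sham surgery left the artery open. The comparisons ask how the genes respond to MI and whether the response depends on PKM2.

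Cardiomyocytes sense load at the sarcomere, where titin springs run from the Z-disc, and at the intercalated disc, where the myofibrils of neighboring cells are joined. Ankrd1, Ankrd2 and Ankrd23 encode the muscle ankyrin repeat proteins, which bind the elastic part of titin and also enter the nucleus. Csrp3 encodes muscle LIM protein of the Z-disc, and Fhl1 and Fhl2 encode four-and-a-half LIM domain scaffolds that bind titin. Nrap, Xirp1 and Xirp2 encode actin-binding proteins of the intercalated disc, Xirp1 and Xirp2 being known as Xin and Xin beta. Rcan1 encodes an inhibitor of calcineurin, the phosphatase that activates NFAT transcription factors, and is itself a known NFAT target. Several of these genes are widely used as readouts of ventricular wall stress.

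Values are normalized counts, the reads on a gene divided by the size factor of the library. Libraries held 20623769 to 71855101 reads on genes, of which 15.8 to 46.1% lay on 6 rRNA-related loci. The gene-level count of Pkm, from which both PKM1 and PKM2 are made, was 7779 to 12076 in PKM2fl/fl and 10120 to 16113 in PKM2-/- hearts, and it does not check the deletion, which removes a single exon. The summed level of 11 cardiomyocyte markers was 1151706 to 1447433 at baseline and after sham surgery and 236055 to 549577 after MI, so cardiomyocyte transcripts were abundant in every library. In bulk ventricle, fewer cardiomyocytes and less RNA per cardiomyocyte cannot be told apart.

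On GRCm38.p6 (the mm10 assembly), 3 of the genes lie on 1 chromosome: Ankrd1 at chr19:36111965-36119844, Ankrd2 at chr19:42035917-42045111 and Nrap at chr19:56320037-56390062. Ankrd23 lies at chr1:36530193-36536556 and Fhl2 at chr1:43123071-43198343, Xirp2 at chr2:67446000-67526620, Csrp3 at chr7:48830398-48848051, Xirp1 at chr9:120013755-120023598, Rcan1 at chr16:92391951-92466169 and Fhl1 at chrX:56731209-56793346.

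The promoters of 4 members are shown as chosen examples. Within 250 bases upstream of a RefSeq transcript start they carry the letters of motifs by which load-responsive factors are known to bind DNA. Other members carry such motifs too (below), as does the other start of Fhl2. Sequences are from RefSeq on GRCm38.p6, 5′ to 3′ on the strand of the gene, and capitals mark the motif on either strand. The Ankrd1 promoter (chr19:36119845-36120094, minus strand) holds 2 M-CAT motifs (CATTCC), the binding motif of TEAD factors, beginning 210 and 123 bases upstream of the start.
Ankrd1: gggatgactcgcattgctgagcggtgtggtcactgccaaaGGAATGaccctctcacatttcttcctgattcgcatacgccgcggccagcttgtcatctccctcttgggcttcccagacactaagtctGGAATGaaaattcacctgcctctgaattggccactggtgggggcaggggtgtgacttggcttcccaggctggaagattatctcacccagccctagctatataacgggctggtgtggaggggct
The Xirp2 promoter (chr2:67445752-67446001, plus strand) holds 1 MEF2 site beginning 74 bases upstream.
Xirp2: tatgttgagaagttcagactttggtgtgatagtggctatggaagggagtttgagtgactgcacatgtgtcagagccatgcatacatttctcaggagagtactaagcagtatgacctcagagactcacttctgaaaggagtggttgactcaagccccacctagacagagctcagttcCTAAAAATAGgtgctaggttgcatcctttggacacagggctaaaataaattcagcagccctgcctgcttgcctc
The downstream of the 2 Fhl2 starts (chr1:43163962-43164211, minus strand) holds 1 CArG box, the motif of serum response factor (SRF), beginning 31 bases upstream.
Fhl2: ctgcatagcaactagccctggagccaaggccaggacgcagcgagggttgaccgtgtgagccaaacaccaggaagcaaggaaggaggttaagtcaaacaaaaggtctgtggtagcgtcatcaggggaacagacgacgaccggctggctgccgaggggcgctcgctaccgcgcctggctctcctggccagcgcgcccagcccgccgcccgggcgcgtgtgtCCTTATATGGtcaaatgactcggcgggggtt
The downstream of the 2 Rcan1 starts (chr16:92400079-92400328, minus strand), the start of a shorter isoform, holds 3 NFAT core motifs (GGAAA).
Rcan1: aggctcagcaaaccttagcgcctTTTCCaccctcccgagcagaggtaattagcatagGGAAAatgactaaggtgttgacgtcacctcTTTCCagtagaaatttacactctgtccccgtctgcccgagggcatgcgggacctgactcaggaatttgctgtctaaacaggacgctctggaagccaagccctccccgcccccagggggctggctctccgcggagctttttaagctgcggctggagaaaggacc
Of the 9 members with a promoter in the table (14 starts), 2 held an M-CAT motif (Ankrd1 and Ankrd23), 2 a MEF2 site (Xirp2 and Fhl2), 2 a CArG box (Fhl1 and Fhl2) and 4 an NFAT core (Ankrd23, Csrp3, Fhl1 and Rcan1). Xirp1 is named only. Among all 32851 promoters of the same length, 12.6% held an M-CAT motif, 2.92% a MEF2 site, 1.47% a CArG box and 55.6% an NFAT core. Matches of different motifs were counted separately, also where they overlapped, and a gene with several starts had more chances to hold one. A match describes the letters, not binding.

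In PKM2fl/fl hearts at baseline, the members differed widely in level. Per kilobase of annotated exon, Ankrd1 stood highest at 5654 ± 2160 (SD, n = 2), followed by Csrp3 at 4283 ± 476, and the ranges of these 2 genes overlapped. Fhl2 and Nrap followed at 2656 ± 32.2 and 2619 ± 140, also overlapping. Xirp2 (1449 ± 24.0), Ankrd23 (1196 ± 75.4), Xirp1 (691 ± 10.6), Fhl1 (669 ± 129) and Rcan1 (391 ± 21.9) came next, and the ranges of Xirp1 and Fhl1 overlapped. Ankrd2, which is mainly a skeletal muscle gene, was lowest at 8.15 ± 5.17. The length is that of all exons joined over every annotated transcript, and the Fhl2 model is long (16396 bases), so the order of Fhl2 rests on its annotation.

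**Figure D1:**
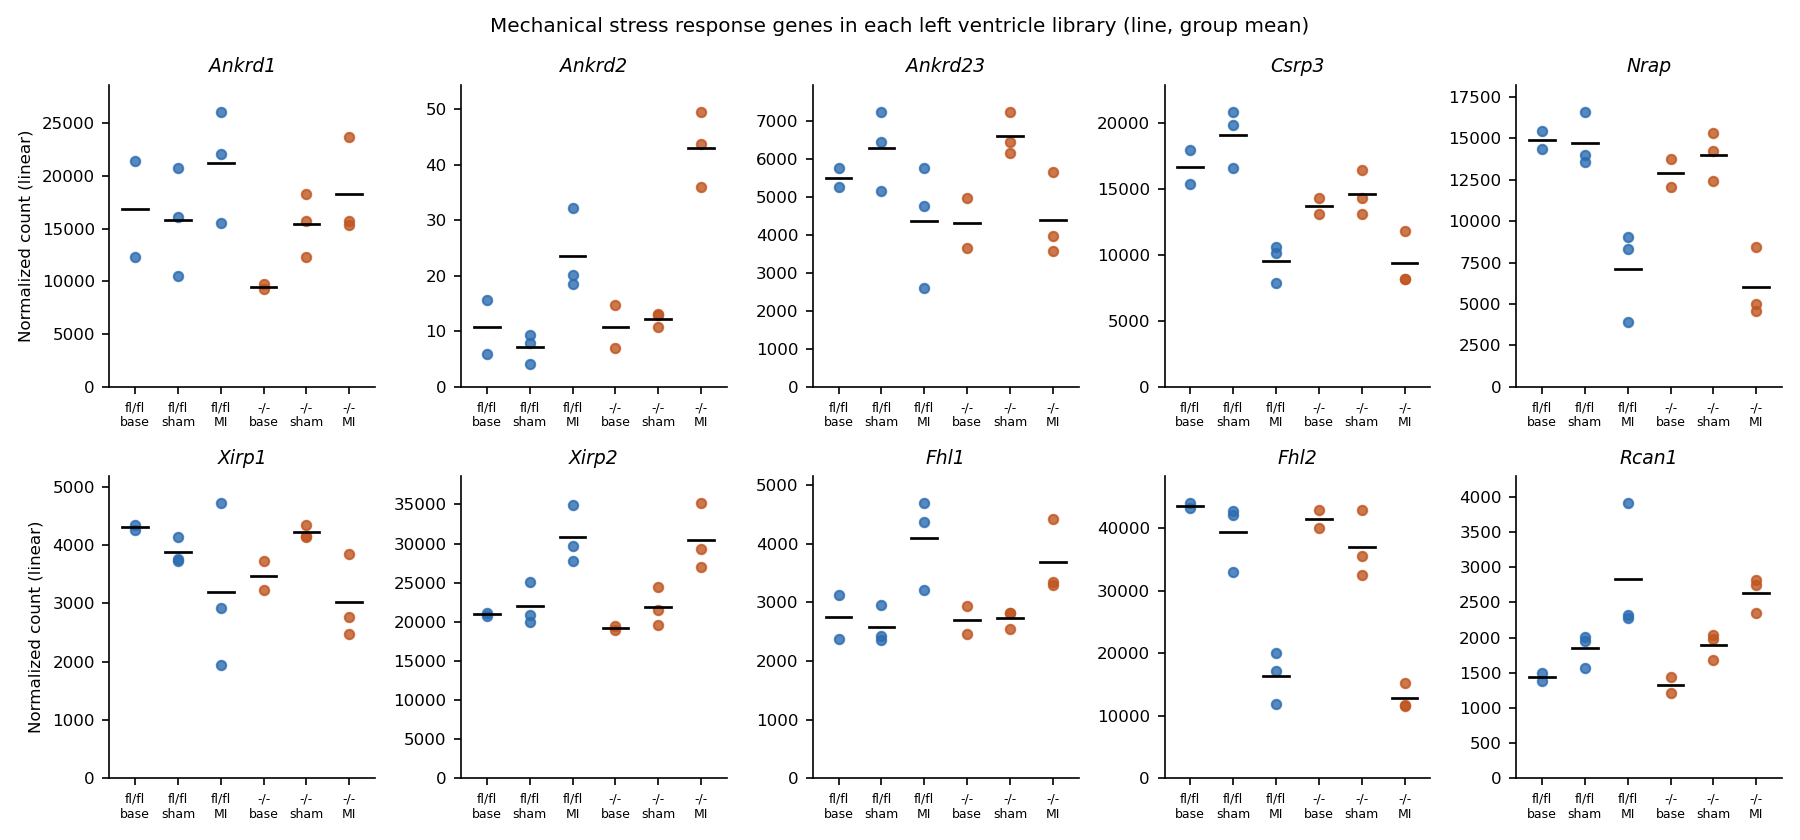
Normalized counts of the 10 genes in each of 16 left ventricle libraries, 1 panel per gene with a linear axis from 0; points are libraries (blue PKM2fl/fl, orange PKM2-/-) and black lines are group means. Fhl2, Nrap and Csrp3 lie lower and Ankrd2, Xirp2, Fhl1 and Rcan1 higher after MI than after sham surgery in both genotypes, and the genotypes lie close together in most panels.

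The MI response of the members ran in both directions. In PKM2fl/fl hearts 7 of 10 changed at an adjusted p under 0.05, against 50.1% of all genes tested. Ankrd2, Fhl1, Rcan1 and Xirp2 were higher (4 of 10, 24.8% of all genes) and Fhl2, Nrap and Csrp3 lower (3 of 10, 25.3% of all genes). The median log2 change of the members was 0.04, beside -0.003 over all genes tested. In PKM2-/- hearts 8 of 10 changed, against 56.8% of all genes: the same 4 genes were higher (28.7% of all genes) and Fhl2, Nrap, Csrp3 and Ankrd23 lower (28.1%). Their median was -0.13, beside 0.01 over all genes. These shares are near those of all genes, so the number of members that changed does not set them apart.

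Sham and MI libraries did not overlap for 4 higher and 3 lower members in PKM2fl/fl hearts, beside 30% and 29% of all genes, and for 4 higher and 5 lower members in PKM2-/- hearts, beside 31.7% and 30.6%. With a minimum of 2-fold, 4 of 10 members passed in PKM2fl/fl (23.5% of all genes) and 3 of 10 in PKM2-/- hearts (28.8%). Scaling to the total reads of each library, rRNA included, changed the split of calls over all genes from 5097 higher and 5202 lower to 2383 and 3634 in PKM2fl/fl hearts, and from 5899 and 5780 to 7324 and 1901 in PKM2-/- hearts. It moved the median of all genes to -0.17 and 0.52. Scaling to the reads outside rRNA, mitochondrial and hemoglobin loci, added after the data were seen, gave 7287 and 3903 in PKM2-/- hearts, with a median of 0.23.

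Among the ankyrin repeat genes, Ankrd2 rose the most. It stood at 9.40, 4.11 and 7.84 after sham surgery and at 18.5, 32.1 and 20.1 after MI in PKM2fl/fl hearts, and at 12.9, 13.1 and 10.8 against 43.8, 49.5 and 36.1 in PKM2-/- hearts. Every MI heart was above every sham heart of its genotype. On the log2(value + 1) scale the difference was 1.62 ± 0.42 (SE, adjusted p = 0.0047) in PKM2fl/fl and 1.73 ± 0.42 (adjusted p = 0.0026) in PKM2-/- hearts, which is 3.08-fold and 3.32-fold. These values rest on 4 to 78 reads per library, so counting error is large. Of 9 skeletal muscle markers, Myh1, Myh2 and Myh4 lay between 0 and 5.83 in every library and 4 were tested. Between sham and MI hearts Tnnt3, a fast skeletal troponin gene, went in the direction of Ankrd2. It was 2.51-fold higher after MI in PKM2fl/fl hearts (adjusted p = 0.035), and its log2 difference in PKM2-/- hearts was 1.02 ± 0.49 (adjusted p = 0.088). Ckm, which cardiomyocytes make too, was 4.71-fold and 5.72-fold lower, and Tnni2 and Mylpf did not pass in either genotype. The sum of the 9 markers, most of it Ckm, was 22516 to 28085 after sham surgery and 2500 to 8641 after MI in PKM2fl/fl hearts, and 23484 to 25020 and 3961 to 4794 in PKM2-/- hearts. The part of skeletal muscle transcripts in the rise of Ankrd2 was not tested.

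Ankrd1 stayed within its spread. It stood at 20716, 16153 and 10491 after sham surgery and at 26068, 22099 and 15558 after MI in PKM2fl/fl hearts. The PKM2-/- values were 18311, 12279 and 15751 against 23651, 15756 and 15394. Sham and MI overlapped in both genotypes. The log2 difference was 0.45 ± 0.28 (95% interval -0.14 to 1.04, adjusted p = 0.19) in PKM2fl/fl and 0.23 ± 0.28 (-0.35 to 0.82, adjusted p = 0.49) in PKM2-/- hearts.

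Ankrd23 leaned the other way. It was 7224, 6449 and 5139 after sham surgery and 5750, 4764 and 2601 after MI in PKM2fl/fl hearts, with overlap and a log2 difference of -0.58 ± 0.24 (adjusted p = 0.058). In hearts without PKM2 it was 6148, 6440 and 7230 against 5663, 3962 and 3578, without overlap, a 1.53-fold lower level (log2 -0.61 ± 0.24, adjusted p = 0.043). Ankrd23 shares its span and strand with Gm42417, to which 101 to 102% as many reads were assigned as to Ankrd23, so the counts of these 2 genes cannot be told apart.

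Of the LIM genes, Fhl2 changed the most. Fhl2 stood at 42111, 32992 and 42791 after sham surgery and at 17075, 20103 and 11917 after MI in PKM2fl/fl hearts, a 2.44-fold lower level (log2 -1.29 ± 0.19, adjusted p = 6.8e-05). Without PKM2 it went from 35585, 32517 and 42922 to 15259, 11678 and 11524, which is 2.89-fold lower (log2 -1.53 ± 0.19, adjusted p = 9.7e-06). No MI heart reached a sham heart.

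Fhl1, the X-linked relative of Fhl2, moved in the opposite direction. It was 2952, 2421 and 2364 after sham surgery and 4684, 3205 and 4373 after MI in PKM2fl/fl hearts, 1.57-fold higher (log2 0.65 ± 0.16, adjusted p = 0.0031). In hearts without PKM2 it was 2810, 2822 and 2542 against 4420, 3340 and 3299, 1.34-fold higher (log2 0.42 ± 0.16, adjusted p = 0.033). The groups did not overlap in either genotype.

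Csrp3 was lower after MI. It was 19812, 20834 and 16607 after sham surgery and 10136, 10614 and 7890 after MI in PKM2fl/fl hearts, 2.01-fold lower (95% interval of the log2 difference -1.36 to -0.65, adjusted p = 0.00014). Without PKM2 it was 14314, 13073 and 16464 against 11805, 8139 and 8183, 1.58-fold lower (log2 -0.66 ± 0.17, adjusted p = 0.0032). The groups did not overlap in either genotype. With total read scaling Csrp3 lost its call in PKM2-/- hearts (log2 -0.14, adjusted p = 0.76), as it did with reads outside rRNA, mitochondrial and hemoglobin loci (log2 -0.44, adjusted p = 0.089).

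At the intercalated disc, Nrap and Xirp2 went in opposite directions. Nrap was 16589, 13586 and 13987 after sham surgery and 9060, 8321 and 3900 after MI in PKM2fl/fl hearts, 2.20-fold lower (log2 -1.14 ± 0.27, adjusted p = 0.0024). In hearts without PKM2 it was 12403, 15330 and 14243 against 8444, 4603 and 4974, 2.41-fold lower (log2 -1.27 ± 0.27, adjusted p = 0.00086). Every MI heart lay below every sham heart. With total read scaling the call was lost in PKM2-/- hearts (log2 -0.76, adjusted p = 0.083).

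Xirp2 was 25138, 19964 and 20858 after sham surgery and 34979, 29653 and 27823 after MI in PKM2fl/fl hearts, 1.40-fold higher (log2 0.49 ± 0.15, adjusted p = 0.013). Without PKM2 it was 19655, 21521 and 24485 against 35121, 29306 and 26999, 1.39-fold higher (log2 0.47 ± 0.15, adjusted p = 0.013). Sham and MI did not overlap. Xirp2 overlaps the antisense transcript Gm13601, which took 71.0 to 75.8% as many reads, and Nrap the antisense Gm17197, with 3.67 to 4.77%. The strand setting of the counting is not given in the sources used here, so reads of these pairs may be mixed.

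Xirp1, the relative of Xirp2, did not pass the test in either genotype. It was 3727, 3769 and 4146 after sham surgery and 4715, 2924 and 1948 after MI in PKM2fl/fl hearts (log2 -0.37 ± 0.23, adjusted p = 0.19), where the highest MI heart was above all sham hearts and the lowest below all of them. In hearts without PKM2 it was 4148, 4349 and 4159 against 3842, 2768 and 2484, without overlap (log2 -0.50 ± 0.23, adjusted p = 0.073). Reads assigned to its neighbor Cx3cr1 came to 137 to 207% of those of Xirp1 and followed it over the 16 libraries (Pearson r = 0.960). The count of Xirp1 may therefore be shared with that gene. The spans of the 2 genes do not overlap in the annotation checked, which is of another build, so this rests on the counts alone.

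Rcan1 was 1953, 2014 and 1570 after sham surgery and 3906, 2276 and 2318 after MI in PKM2fl/fl hearts, 1.49-fold higher (log2 0.58 ± 0.17, adjusted p = 0.012). Without PKM2 it was 1677, 1981 and 2035 against 2349, 2815 and 2747, 1.39-fold higher (log2 0.48 ± 0.17, adjusted p = 0.030). The gene-level count does not separate its isoforms. With total read scaling Rcan1 (log2 0.40), Fhl1 (0.48) and Xirp2 (0.31) lost their calls in PKM2fl/fl hearts, with adjusted p values of 0.33, 0.25 and 0.57.

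**Figure D2:**
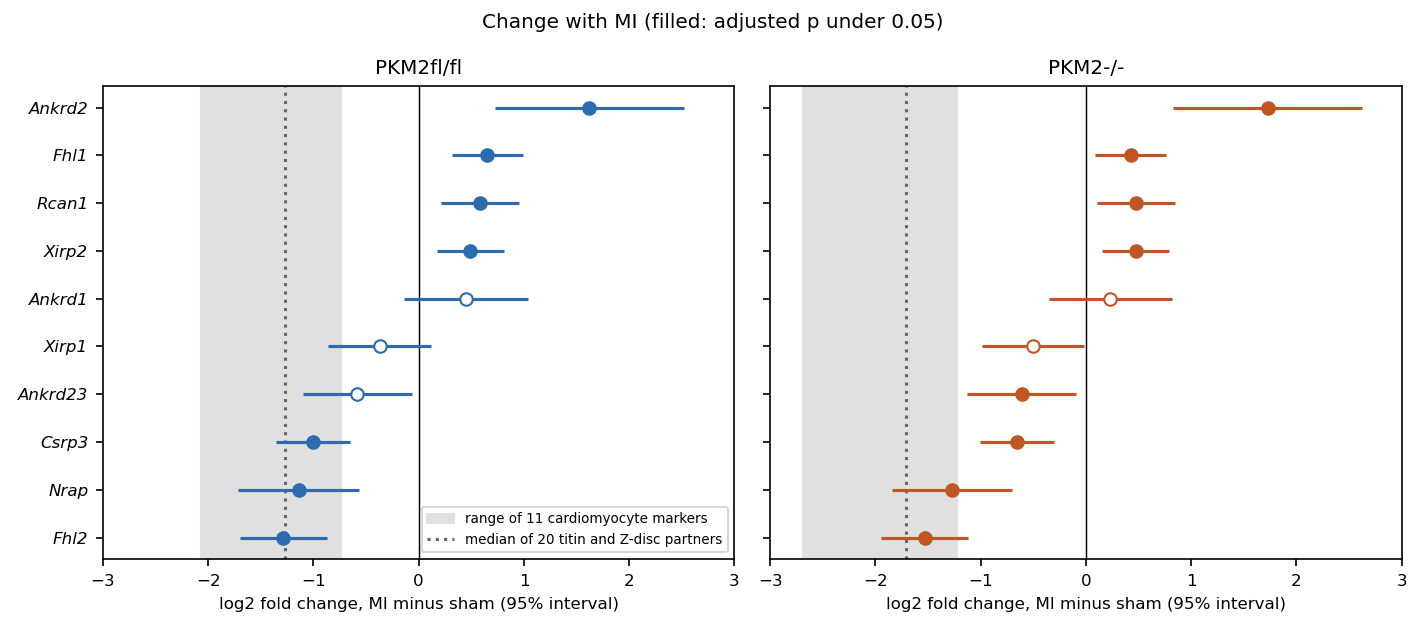
Log2 fold change of each gene between MI and sham hearts (x axis) with its 95% interval, PKM2fl/fl left and PKM2-/- right; filled points passed an adjusted p of 0.05, the grey band spans 11 cardiomyocyte markers and the dotted line is the median of 20 titin and Z-disc partners. In PKM2fl/fl hearts 7 of 10 genes lie to the right of the band, and Csrp3, Nrap and Fhl2 lie within it. The median over all genes tested (-0.003, not drawn) is also to the right of the band there.

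The calls for Fhl2, Nrap, Csrp3 and Ankrd2 held in both genotypes with each library left out in turn. For PKM2fl/fl hearts the call for Xirp2 was lost without sham replicate 2 (adjusted p = 0.058) or MI replicate 1 (0.056), and that for Rcan1 without sham replicate 3 (0.060) or MI replicate 1 (0.056). Without MI replicate 1, Rcan1 was 0.32 higher on the log2 scale, and Xirp1 (log2 -0.70, adjusted p = 0.0048) and Ankrd23 (log2 -0.82, adjusted p = 0.013) passed the test. Ankrd23 also passed without sham replicate 3 (adjusted p = 0.042). Among PKM2-/- libraries, sham replicate 1 weighed most: without it 4 of 10 members passed, and the calls for Xirp2 (adjusted p = 0.061), Fhl1 (0.055), Rcan1 (0.11) and Ankrd23 (0.062) were lost. There the call for Fhl1 was also lost without sham replicate 2 (0.052), sham replicate 3 (0.099) or MI replicate 1 (0.16), that for Xirp2 without MI replicate 1 (0.063), and that for Rcan1 without MI replicate 2 (0.091) or 3 (0.082). Ankrd23 passed there only when no library, or MI replicate 1, was left out, with adjusted p values of 0.062 to 0.16 otherwise. Xirp1 passed there without MI replicate 1 (adjusted p = 0.027).

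The members can be set beside other cardiomyocyte genes of the same libraries. The mean log2 level of the 11 markers, which include cardiac troponins, ventricular myosin light chains and Ryr2, the sarcoplasmic calcium release channel, was 16.60 ± 0.02 (SD, n = 3) after sham surgery and 14.89 ± 0.69 after MI in PKM2fl/fl hearts. In hearts without PKM2 it was 16.49 ± 0.15 and 14.46 ± 0.26. The marker level was lower at an adjusted p under 0.05 for 10 of 11 markers in PKM2fl/fl and 11 of 11 in PKM2-/- hearts, with log2 changes of -2.07 to -0.74 and -2.68 to -1.22. In PKM2fl/fl hearts 7 of 10 members, and in PKM2-/- hearts 8 of 10, had a log2 change above the highest of these marker values, as had 6 of 20 titin and Z-disc partners in each genotype. The remaining members were Fhl2 and Nrap in both genotypes and Csrp3 in PKM2fl/fl hearts. The median log2 change over all genes tested (-0.003 and 0.01) also lay above the highest marker value. A place above the markers therefore does not set the members apart from genes at large.

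Relative to the marker mean of each library, Fhl2 differed between MI and sham by a log2 of 0.42 ± 0.20 (adjusted p = 0.061) in PKM2fl/fl and 0.49 ± 0.20 (adjusted p = 0.029) in PKM2-/- hearts, and Nrap by 0.57 ± 0.20 and 0.75 ± 0.20. On that scale Ankrd1 was 2.16 ± 0.27 and 2.26 ± 0.27 higher, and Xirp2 2.19 ± 0.24 and 2.50 ± 0.24. With this centering 9 of 10 members in PKM2fl/fl and 10 of 10 in PKM2-/- hearts were higher, beside 86% and 88.6% of all genes tested, and the medians of the members (1.75 and 1.89) were close to those of all genes (1.70 and 2.03). The centering thus sets members apart from the markers, not from genes at large.

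**Figure D3:**
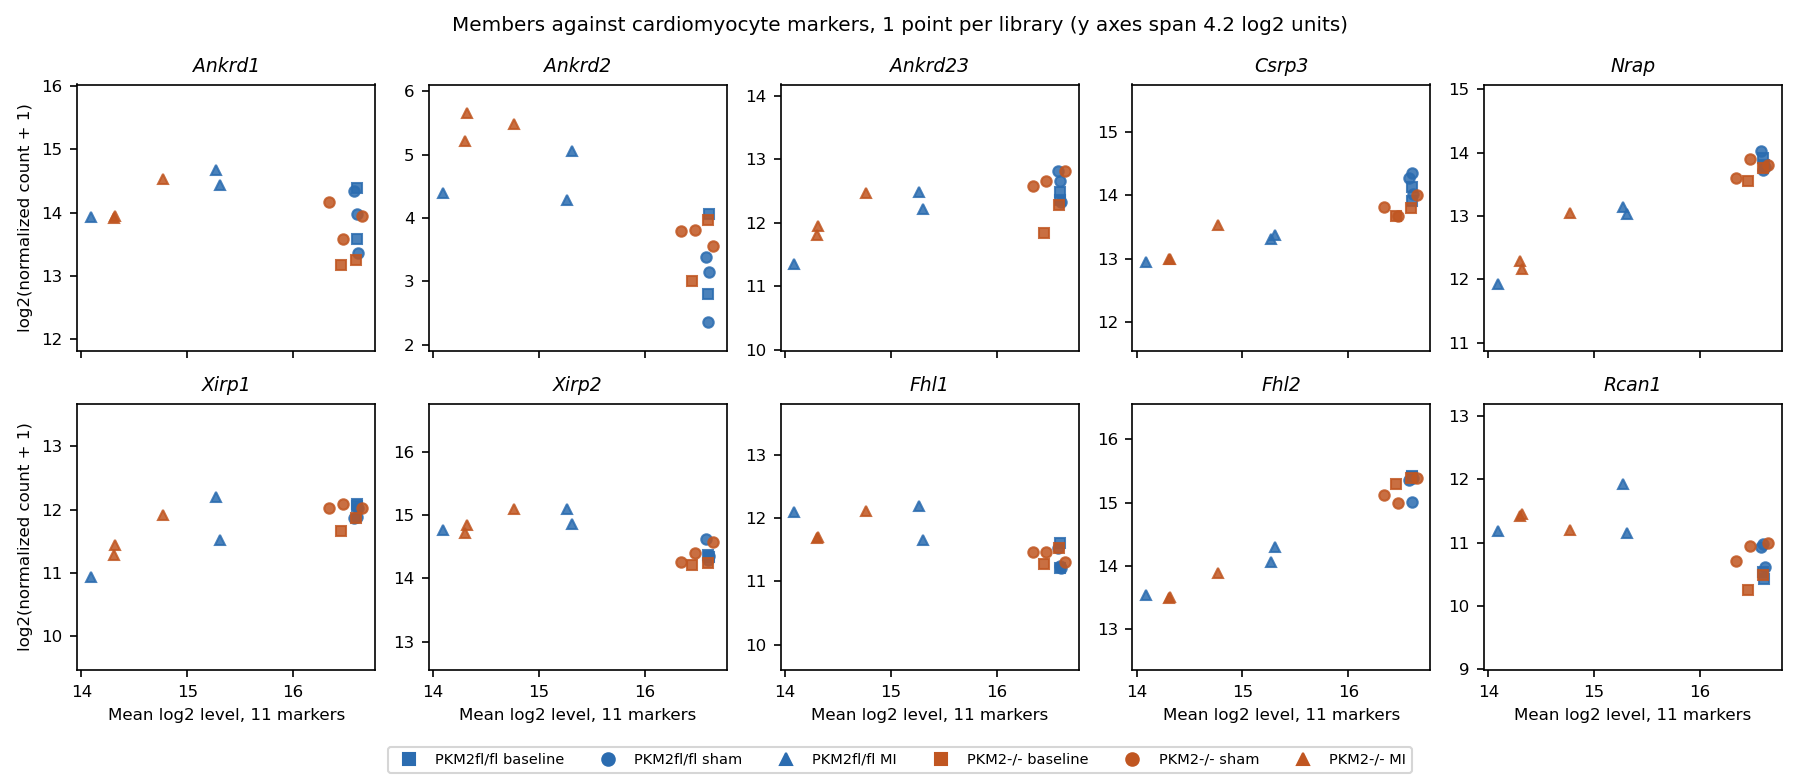
Log2(normalized count + 1) of each gene (y axis, a span of 4.2 in every panel) against the mean log2 level of 11 cardiomyocyte markers (x axis) in 16 libraries; blue PKM2fl/fl, orange PKM2-/-, squares baseline, circles sham, triangles MI. Fhl2, Nrap and Csrp3 are low where the markers are low, while Xirp2, Fhl1, Rcan1 and Ankrd2 are higher in MI libraries than in sham libraries of the same genotype.

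The 6 MI libraries differed in marker level, from 14.09 in PKM2fl/fl MI replicate 3 to 15.31 in PKM2fl/fl MI replicate 2. PKM2fl/fl MI replicate 3 was the lowest of its group for 7 of 10 members (Ankrd1, Ankrd23, Csrp3, Xirp1, Xirp2, Fhl2 and Nrap). Among the PKM2-/- libraries MI replicate 1 had the highest marker level (14.77) and was the highest of its group for 8 of 10 members. Other cell types moved with MI as well. The 6 fibroblast markers summed to 24171 to 45424 after sham surgery and to 162341 to 176212 after MI in PKM2fl/fl hearts, the 7 monocyte and macrophage markers to 5211 to 10368 and 22540 to 39136, and the 5 neutrophil markers to 235 to 1408 and 1364 to 2521. The PKM2-/- sums were 27755 to 45252 and 141808 to 196246 for fibroblasts, 6894 to 8643 and 28803 to 34112 for monocytes and macrophages, and 982 to 1237 and 4064 to 5133 for neutrophils, so the neutrophil sums of the MI hearts did not overlap between genotypes. None of the markers in these 3 lists was at 0 in a whole group. Not every marker moved as its sum did. The fibroblast marker Dcn was lower after MI in PKM2fl/fl (log2 -0.53, adjusted p = 0.022) and PKM2-/- hearts (-0.58, adjusted p = 0.013). The neutrophil markers S100a8 and S100a9 did not pass in PKM2fl/fl (adjusted p = 0.58 for each) or PKM2-/- hearts (0.059 and 0.068). Csrp1, Csrp2 and Fhl3, relatives that are made in non-muscle cells or smooth muscle too, rose with these lists (below). The part of cell composition in the change of each member, Rcan1 and Fhl1 included, was not tested. Bulk counts do not show which cells made a transcript.

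Related genes of the sarcomere mostly fell. Of 20 titin and Z-disc partners, 15 were lower and 0 higher in PKM2fl/fl hearts after MI (median log2 -1.27), and 16 were lower and 0 higher in PKM2-/- hearts (median -1.71). The 4 with the smallest p in PKM2fl/fl hearts were Trim63, a ubiquitin ligase of the sarcomere (3.00-fold lower), Myoz2, a calcineurin-binding Z-disc protein (2.83-fold), Nebl, the nebulin-like nebulette (2.44-fold), and Tcap, the titin cap (4.98-fold). The same genes were 3.29-fold, 3.29-fold, 3.84-fold and 5.11-fold lower in PKM2-/- hearts. Of 7 load-responsive sarcomere and hormone genes, 2 were higher and 3 lower in each genotype, with Atp2a2 and Myh6 also among the cardiomyocyte markers. For PKM2fl/fl hearts the natriuretic peptide gene Nppb was 2.35-fold higher (log2 1.23 ± 0.30, adjusted p = 0.0032), while the calcium pump gene Atp2a2 (3.49-fold) and the myosin heavy chain genes Myh6 (3.83-fold) and Myh7 (3.52-fold) were lower.

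Genes of the signaling pathways around the members went both ways. Of 17 tested calcineurin and NFAT genes, 3 were higher and 4 lower in PKM2fl/fl hearts, and 3 and 5 in PKM2-/- hearts. Among them, in PKM2fl/fl hearts, Rcan3 was 1.65-fold higher and Rcan2 2.34-fold lower. Their relative Rcan1, a member and not counted in this list, was 1.49-fold higher there. The calcineurin catalytic subunit gene Ppp3cc was 1.44-fold and the transcription factor gene Mef2d 1.46-fold lower there. Of 17 tested YAP and SRF coactivator genes, 6 were higher and 3 lower in PKM2fl/fl hearts, and 6 and 4 in PKM2-/- hearts. Ccn2 and Ccn1, secreted targets of YAP, were 5.36-fold and 2.29-fold higher in PKM2fl/fl hearts, the TEAD cofactor gene Vgll3 3.86-fold and the SRF coactivator gene Mrtfa 2.07-fold.

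Of 19 stretch channel and adhesion genes, 11 were higher and 4 lower in PKM2fl/fl hearts, and 11 and 5 in PKM2-/- hearts. Those with the smallest p in PKM2fl/fl hearts were the stretch channel genes Piezo2 (9.86-fold higher) and Piezo1 (log2 1.07 higher), Tln1, the integrin activator talin (1.86-fold), and Zyx, the focal adhesion protein zyxin (2.25-fold). Of 8 tested relatives of the members, 3 were higher and 2 lower in each genotype. Csrp2 and Csrp1 were 4.23-fold and 2.73-fold higher in PKM2fl/fl hearts while Csrp3 fell, and Fhl3 was 2.62-fold higher, whereas Ankrd33b was 1.88-fold lower.

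The loss of PKM2 changed none of the 10 members at an adjusted p under 0.05 in limma, at baseline, after sham surgery or after MI. Neither edgeR nor DESeq2 called a member (0 of 10) in these comparisons. At baseline 0 of 10 passed, beside 0.00972% of all genes tested (2 genes). At an unadjusted p under 0.05 it was 1 of 10, Ankrd1, beside 748 of 20576 genes. Ankrd1 was 21421 and 12308 in PKM2fl/fl and 9252 and 9742 in PKM2-/- hearts (log2 -0.77 ± 0.34, 95% interval -1.49 to -0.06, adjusted p = 1). The PKM2-/- hearts were below both controls, which differed from each other by 1.74-fold. Of the 10 members 7 were lower in both PKM2-/- hearts than in both controls, beside 17.2% of all genes, none (0 of 10) was higher in both, beside 17.7%, and 9 of 10 had a negative difference (median log2 -0.17, beside -0.003 over all genes). The rRNA-related loci also took a share of reads that separated these libraries by genotype, 17.3 and 22.1% in PKM2fl/fl against 43.9 and 39.7% in PKM2-/- hearts, and PKM2-/- replicate 1, with the highest share, was the lower of its pair for 10 of 10 members. The part of the rRNA share in these differences cannot be told apart from that of the genotype at baseline. Both the members and the libraries are few here: with 2 hearts against 2, the intervals of the 10 members reached from -1.49 to 1.15.

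After sham surgery 0 of 10 passed (0.00972% of all genes). Csrp3 was the only member with an unadjusted p under 0.05, beside 2047 of 20576 genes. It stood at 19812, 20834 and 16607 in PKM2fl/fl against 14314, 13073 and 16464 in PKM2-/- hearts, without overlap (log2 -0.38 ± 0.17, adjusted p = 0.45). Ankrd2 was higher in every PKM2-/- sham heart than in any control (log2 0.76 ± 0.42, adjusted p = 0.59). Non-overlap held for 2 of 10 members in the higher direction (Ankrd2 and Xirp1), beside 8.27% of all genes, and for 1 of 10 in the lower (Csrp3), beside 8.28%.

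After MI 0 of 10 passed, beside 0.967% of all genes, and 0 of 10 had an unadjusted p under 0.05, beside 3492 of 20576 genes. Ankrd2 came closest, at 18.5, 32.1 and 20.1 in PKM2fl/fl and 43.8, 49.5 and 36.1 in PKM2-/- hearts (log2 0.87 ± 0.42, 95% interval -0.03 to 1.77, adjusted p = 0.31). The groups did not overlap, which held for 1 of 10 members and 10.7% of all genes in this direction, and for 0 of 10 and 8.26% in the other. Fhl2 was 1.26-fold lower in PKM2-/- hearts (log2 -0.33 ± 0.19, adjusted p = 0.41), a difference that changed sign with total read scaling (0.035) and with centering on the markers (0.095). Without PKM2fl/fl MI replicate 3, the library with the lowest cardiomyocyte marker level, the difference was -0.54 and passed the test (adjusted p = 0.049). Cell type markers differed between these MI groups too: the 5 neutrophil markers were 0.77 to 1.78 higher on the log2 scale in PKM2-/- hearts (median 1.36) and the 11 cardiomyocyte markers had a median of -0.39, although none of either list passed at an adjusted p under 0.05. Their part in the differences of the members was not tested.

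The MI response itself did not differ between genotypes by a test of the difference. None of the 10 members, and 0 of 20576 genes, passed the genotype by MI interaction in limma, while 0 members and 1703 genes had an unadjusted p under 0.05. On the recovered reads edgeR called 0 and DESeq2 52 genes, and neither called a member. The largest interaction among the members was that of Csrp3, whose fall was smaller in PKM2-/- hearts by a log2 of 0.35 ± 0.23 (95% interval -0.15 to 0.85, adjusted p = 0.73). For Ankrd2, with the fewest reads, the interval was -1.16 to 1.38.

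**Figure D4:**
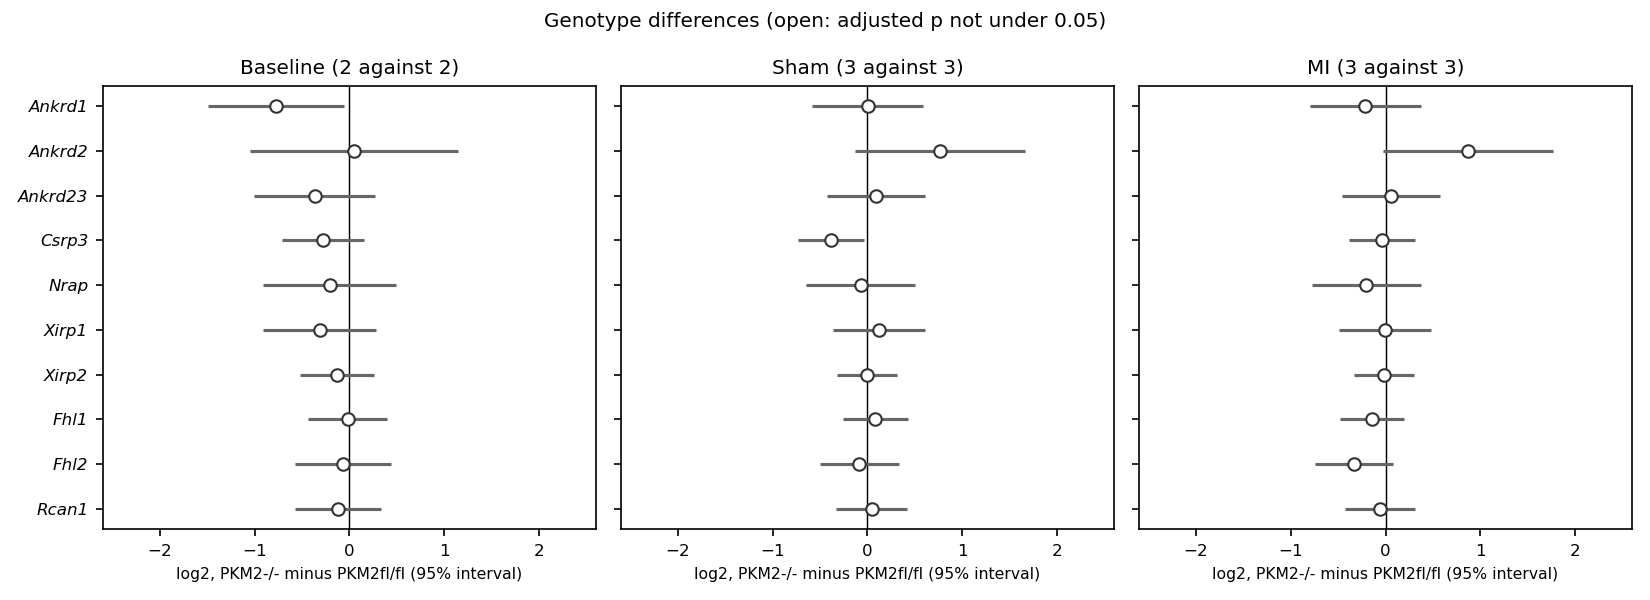
Log2 difference between PKM2-/- and PKM2fl/fl hearts (x axis) with its 95% interval for the 10 genes at baseline (2 against 2 hearts), after sham surgery and after MI (3 against 3 each); open points did not pass an adjusted p of 0.05. All points are open, and the intervals for Ankrd1 at baseline (-1.49 to -0.06) and Csrp3 after sham surgery (-0.74 to -0.03) lie below 0.

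Sham surgery alone was compared with baseline. In PKM2fl/fl hearts 0 of 10 members passed (0.19% of all genes), and Rcan1, at 1379 and 1493 at baseline and 1953, 2014 and 1570 after sham surgery, was the member with the smallest adjusted p (log2 0.35 ± 0.20, adjusted p = 0.67). Baseline and sham libraries did not overlap for 1 higher member (Rcan1), beside 17.4% of all genes, and 2 lower ones (Xirp1 and Fhl2), beside 15.2%. In PKM2-/- hearts 0 of 10 passed (5.14% of all genes). An unadjusted p under 0.05 held for 3 of 10, all higher after sham surgery, beside 3886 of 20576 genes in either direction. Rcan1 went from 1213 and 1442 to 1677, 1981 and 2035 (log2 0.52 ± 0.20, adjusted p = 0.15), Ankrd1 from 9252 and 9742 to 18311, 12279 and 15751 (log2 0.68 ± 0.31, adjusted p = 0.24), and Ankrd23 from 3649 and 4974 to 6148, 6440 and 7230 (log2 0.63 ± 0.27, adjusted p = 0.22). The 3 sham hearts were above both baseline hearts for 5 of 10 members, beside 18.4% of all genes, and below both for 0 of 10, beside 16.1%. Markers of other cell types moved with sham surgery as well. In this comparison of PKM2-/- hearts 4 of 5 neutrophil (median log2 2.85), 3 of 6 fibroblast (0.78) and 1 of 7 monocyte and macrophage markers (0.93) were higher, while 0 of 11 cardiomyocyte markers passed (median -0.04). The medians of these 4 lists were 2.82, 0.84, 0.90 and 0.06 in PKM2fl/fl hearts, where none of their markers passed. The 4 atrial markers summed to 165 to 210 at baseline and 372 to 1330 after sham surgery in PKM2fl/fl hearts. Their PKM2-/- sums were 258 to 457 and 378 to 1532, with overlap. No atrial marker passed the test in either genotype. The part of these lists in the values of the members was not tested. Rcan1 was thus lowest at baseline, intermediate after sham surgery and highest after MI in both genotypes, with no overlap between neighboring groups, although the step from baseline to sham surgery did not pass the test.

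Over the 16 libraries the correlations between members largely followed the groups. Fhl2 and Nrap were the most alike (Pearson r of log2 values = 0.941), followed by Csrp3 and Nrap (0.910), and Csrp3 and Fhl2 (0.891). Xirp2 and Rcan1 (0.855) and Xirp2 and Fhl1 (0.839) rose together, while Fhl2 and Ankrd2 ran in opposite directions (-0.798). These correlations share libraries and group differences and are descriptions. With the group means removed, the value for Fhl2 and Ankrd2 turned positive (0.385), that for Xirp2 and Rcan1 was 0.416 and that for Fhl2 and Nrap 0.787, and the closest pair was Ankrd23 and Nrap (0.904). Among 13469 genes compared, the most like Fhl2 were Cpped1 (0.990), Asb10 (0.989) and Ptgr2 (0.989). Nrap was followed by its antisense neighbor Gm17197 (0.991), then by Actn2, the Z-disc alpha-actinin (0.983), and Lmod2, a thin filament leiomodin (0.983). Xirp2 was followed by its antisense neighbor Gm13601 (0.997), Hbegf, a growth factor gene (0.940), and Ddx27 (0.937). Rcan1 was followed by Ipo4 (0.938), Rasgrp4 (0.932) and Rexo4 (0.923), and Fhl1 by Mical2 (0.907), Atxn10 (0.902) and Gm15270 (0.889). The closest gene to Ankrd1 was Zfp623 at only 0.853.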

How the data were processed

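Total RNA of left ventricle was depleted of rRNA and sequenced as paired ends. PRINSEQ served the authors for trimming, HISAT2 for alignment (mm10 build) and featureCounts for counting; each count was then divided by the DESeq2 size factor of its library, and this normalized signal is what the authors deposited. The strand and overlap settings of the counting are not given in the sources used here. The other columns of the table hold the authors' own baseline comparison, with its log2 fold change, p-value and related values, and were not used. No column (0) was left without a sample.

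The members and gene lists were chosen with earlier results of these data known. All 10 members are described; of each pathway list at most 4 genes with the smallest p in MI against sham PKM2fl/fl hearts are named, and of genes like a member the 3 with the highest correlation among those with a mean of at least 100. Values of log2(signal + 1) were fitted with limma-trend (limma 3.58.1, R 4.3.3) over the 16 libraries in 6 groups, for genes with a mean of at least 10, with Benjamini-Hochberg adjustment over 20576 genes. Errors of log2 differences are SE, and intervals are 95%. With 3 hearts against 3, an exact permutation test cannot go below 0.1. The labels state no pairing of animals by replicate number. With group means removed, the correlation of same-numbered libraries was -0.09 to 0.13, which cannot exclude a shared factor in groups of 2 or 3.

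Whole reads were recovered for 99.996 to 100% of the values of a library, within 0.001 of a whole read. On these, edgeR 4.0.16 called 10504 and DESeq2 1.42.0 called 10765 genes between MI and sham PKM2fl/fl hearts, against 10299 by limma. In simulated data for that comparison over 20441 genes, limma recovered 76% of genes changed 2-fold and 97% of those changed 4-fold, with 3 false calls. The simulation changed 200 genes, gave all genes the same relative spread and held no differences in cell composition between hearts. Its recovery and false calls therefore need not hold for these MI hearts. Coordinates and promoters are RefSeq's on GRCm38.p6. Exon lengths and overlaps came from a GENCODE annotation of another build.

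The lists were titin and Z-disc partners, calcineurin and NFAT genes, YAP and SRF coactivators, stretch channels and adhesion genes, load-responsive genes, relatives of the members, and markers of cardiomyocytes, fibroblasts, monocytes and macrophages, neutrophils, endothelium, smooth muscle, skeletal muscle, atrium and red cells. Alternatives were other scalings, edgeR, DESeq2, a pseudocount of 0.1, no filter, a replicate block, centering on cardiomyocyte markers, a 2-fold minimum, fits of only the groups compared, and leaving out each library.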

Additional observations from a re-analysis of the deposited data

Results flagged for a closer look

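Xirp1, which encodes Xin of the intercalated disc, met a rule for effects that run in opposite directions. In PKM2fl/fl hearts all 3 sham libraries (3727, 3769 and 4146) lay below both baseline libraries (4350 and 4257), and in PKM2-/- hearts all 3 (4148, 4349 and 4159) lay above both (3224 and 3724). Equally, both PKM2-/- hearts were below both controls at baseline and all 3 were above all 3 controls after sham surgery. The difference between the sham effects was 0.43 ± 0.36 on the log2 scale (95% interval -0.33 to 1.20), and the genotype by sham interaction, added after the data were seen, gave an adjusted p of 0.96 in limma, so the difference did not pass a test.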

How the results depend on the processing

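For MI against sham, the number of members called was 7 in PKM2fl/fl and 8 in PKM2-/- hearts. It was 4 (1 higher, 3 lower) and 5 (4 higher, 1 lower) with total read scaling, 4 and 3 with a 2-fold minimum, and 7 and 5 with no filter on low values, where 40116 genes were tested. With the other alternatives it was 5 to 9 and 6 to 10. Leaving out each library in turn gave 6 to 7 and 4 to 7. Between genotypes after MI the count was 0 to 1 with a library left out, the 1 being Fhl2, and it was 0 in every alternative for the other comparisons. Centering on the cardiomyocyte markers reversed the sign, by construction since the markers fell, for Ankrd23 (1.12 and 1.41), Csrp3 (0.70 and 1.37), Xirp1 (1.33 and 1.52), Fhl2 (0.42 and 0.49) and Nrap (0.57 and 0.75) in PKM2fl/fl and PKM2-/- hearts. Total read scaling reversed Xirp1 in PKM2-/- hearts (0.011). For the genotype difference of Fhl2 after MI, it gave 0.035 and centering 0.095; the cause was not tested. The interaction of Ankrd2 ranged from -0.10 to 0.41 with a library left out. Of the remaining alternative values of single members, 509 kept their direction and side of the threshold, 40 lost a call and 10 gained one. These were limited, after they were seen, to both MI comparisons, members with an unadjusted p under 0.1 and a few values printed above. The other 57 member values, none of them called, had 1014 alternatives, of which 146 reversed their sign, so their directions carry no weight.

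With the replicate number as a block, 8 and 8 members were called, Ankrd23 being added in PKM2fl/fl hearts (adjusted p = 0.035). The block changed no other member's call, and it gave 75 genes in place of 199 between genotypes after MI. By their labels the samples share only a number, and same-numbered libraries showed little correlation in their deviations from the group means. Over all genes, DESeq2 called more than limma between genotypes, 17 against 2 at baseline, 285 against 2 after sham surgery, 1061 against 199 after MI and 52 against 0 for the interaction, and 369 against 39 between sham and baseline PKM2fl/fl hearts. Fits of only the groups compared gave 48 genes at baseline and 6 after MI. Ankrd2, with 4 to 78 reads a library, is the member most limited by depth.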

Other observations

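The remaining marker lists give further values beside the members. The 5 endothelial markers summed to 14819 to 17181 after sham surgery and 16868 to 19119 after MI in PKM2fl/fl hearts, with 2 higher and 1 lower of 5. Their PKM2-/- sums were 17274 to 17829 and 17827 to 19405, with overlap. There Cdh5 was higher (log2 0.75, adjusted p = 9.4e-06), and Kdr (-0.57, adjusted p = 0.0042) and Tek (-0.30, adjusted p = 0.0077) were lower. The 4 smooth muscle markers summed to 2921 to 3234 after sham surgery and 7047 to 7936 after MI in PKM2fl/fl hearts, with 3 of 4 higher. Their PKM2-/- sums, 3463 to 5664 and 4753 to 6781, overlapped. There 2 of 4 were higher and Myh11 was lower (log2 -1.34 ± 0.24, adjusted p = 0.00022). None of 4 atrial and none of 5 red cell markers passed the test in PKM2fl/fl hearts, and 1 of 4 atrial markers was higher in PKM2-/- hearts.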
